A study of Mus musculus with 5 samples.

Results

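The genes of the mitochondrial respiratory chain were examined in fetal mouse liver, from both genomes that encode it. They were chosen by symbol, as all genes named mt-, Ndufa, Ndufb, Ndufc, Ndufs, Ndufv, Sdha to Sdhd, Uqcr, Cyc1, Cycs, Cox4 to Cox8 or Atp5, leaving out 9 symbols marked as pseudogenes. They came to 112 of the 23022 genes listed, 16 encoded in the mitochondrion and 96 in the nucleus. RNA was sequenced from poly(A)-selected libraries of livers of E18.5 embryos. The 4N group held 3 libraries, from embryos with a knockout of Hhex that had received tetraploid embryonic stem cells positive for td-Tomato at the blastocyst stage. The WT group held 2 libraries from normal embryos of the same day. Ploidy, the origin of the liver cells, the Hhex genotype of the host and the injection thus differ together between the groups and cannot be told apart. The sources used here do not say whether 1 or several stem cell lines were injected, nor how many host cells the livers held.

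The data were the authors' comparison of both groups, and single libraries and their depth were not analysed here. Levels are therefore given as fitted group means, computed from the authors' mean normalized count over all libraries and their fold change, and the spread between libraries enters only through the standard error (SE) of that fold change. All fold changes are log2 values of 4N over WT. Since no column says which group is on top, the direction was read from the SEs of genes that are at the floor in 1 group. An empty group of 2 libraries cannot give an SE under 1.44, and 0 of 606 positive but 12 of 247 negative genes had a smaller one, so negative values go with an empty group of 3, the 4N libraries. A gene passed the test where the Wald test of the authors, adjusted over all genes, gave a p under 0.05. Whether the embryos of 1 group were littermates is not stated, so these p-values measure the spread between these samples only. Of 12 hepatocyte markers 12 were listed, with a summed fitted level of 12259537 normalized counts in 4N livers and 12905114 in WT livers. Most of that sum came from Alb (6210266 in 4N livers and 6185296 in WT livers) and Trf (3165822 in 4N livers and 2577114 in WT livers). The median fold change of the 12 markers was -0.41.

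The respiratory chain passes electrons from NADH (complex I) and succinate (complex II) through coenzyme Q, complex III and cytochrome c to oxygen at complex IV, and the proton gradient built on the way drives ATP synthase (complex V). Complex II is encoded in the nucleus alone, whereas the other complexes combine nuclear subunits with a small number of subunits made inside the mitochondrion from its own genome. That genome is transcribed from both strands into long precursors that are cut into mRNAs, rRNAs and tRNAs. In hepatocytes the chain carries the oxidation of fatty acids and amino acids, and its capacity grows around birth.

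Most mitochondrially encoded mRNAs fell in 4N liver, and most nuclear subunits of the same complexes did not pass the test. Of the 112 genes, 18 fell and 3 rose, against 7.41% of all genes listed that fell and 7.94% that rose. Of the 13 mitochondrial protein genes, 7 fell and 1 rose, with a median log2 fold change of -0.99. Of the 96 nuclear genes, 10 fell and 2 rose, with a median of -0.25, which turned to 0.23 after recentring on 27 secreted plasma proteins (a shift of 0.48), while the mitochondrial median stayed below 0 at -0.51. The median over all genes listed was -0.001. Among the 84 nuclear genes whose mean reached 1000 normalized counts, 9 fell (10.7%), against 10.3% of all genes at that level, so the nuclear share lay near the background. In those 84 genes, 72 had a 95% interval wholly between -1 and 1. The plasma protein list had itself a median of -0.48, with 13 of its 27 genes lower and 1 higher. After that recentring, 6 of the 112 genes were lower and 10 higher, against 4.10% of all genes that were lower and 23.9% that were higher. Of these, mt-Nd1, mt-Nd4 and mt-Nd6 were the mitochondrial protein genes still called lower, and Uqcrq and Cox7b the nuclear ones. When the p-values were taken from a t distribution (3 degrees of freedom), 0 of the 112 genes and 0 of all 23022 genes listed passed. At an unadjusted p under 0.05 from that t distribution, 10 of the 112 and 2513 of the 23022 genes passed. The difference between the mitochondrial and the nuclear medians was not tested, since the genes share libraries and are not replicates.

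**Figure D1:**
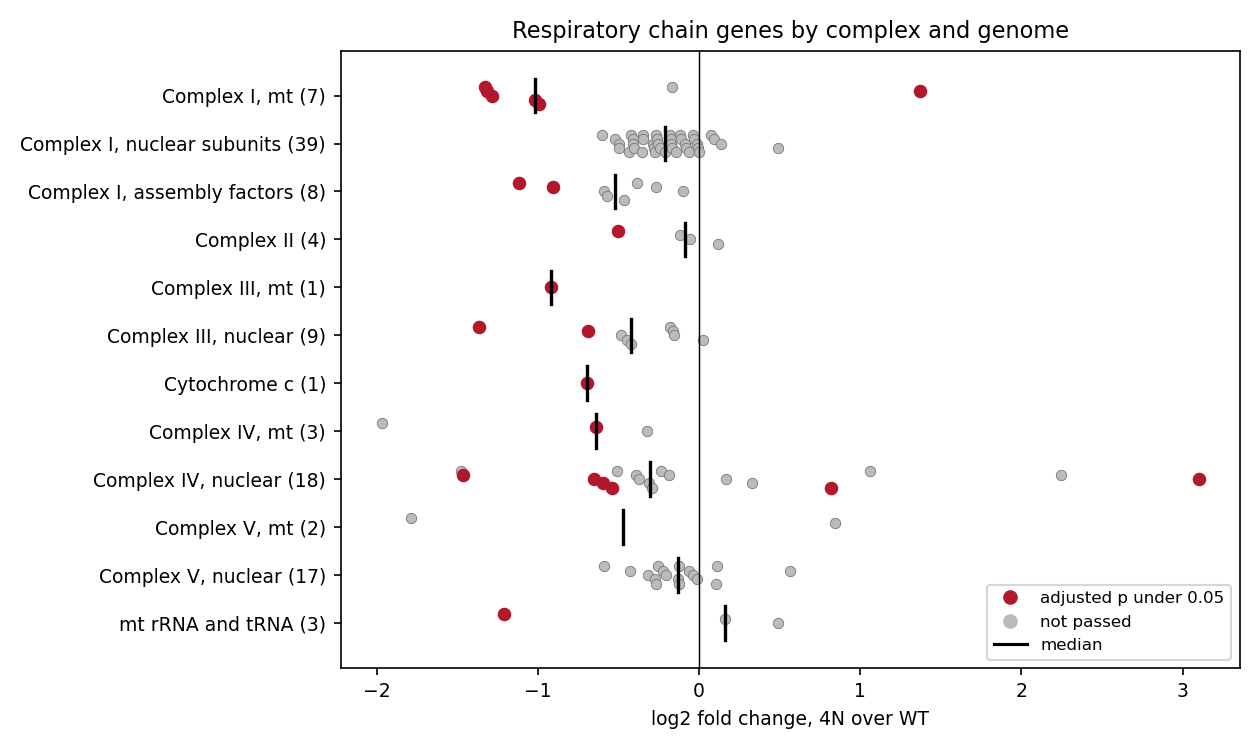
Log2 fold change of 4N over WT (horizontal axis) for each of the 112 genes, in rows by complex and genome with the number of genes in brackets. Red points passed an adjusted p of 0.05, grey points did not, and black bars are medians. The 7 mitochondrial subunits of complex I have a median of -1.02, and the 39 nuclear ones lie around -0.21 with none past the test.

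Summed over the 13 protein genes, mitochondrial mRNA took 2.33% of all fitted normalized counts in 4N livers and 4.34% in WT livers. The summed fitted levels themselves, 4N over WT, had a ratio of 0.527. The 96 nuclear genes together took 0.839% in 4N livers and 0.964% in WT livers, and their summed fitted levels had a ratio of 0.857. In whole liver RNA, fewer cells of a type and less RNA per cell cannot be told apart. Red cell precursors are part of the fetal liver, and 18 of 18 erythroid markers rose between these groups, with a summed fitted level of 3534600 normalized counts in 4N livers and 1039973 in WT livers and fold changes from 0.72 to 3.91. Hepatocyte markers fell in 5 of 12 cases and rose in 0, with fold changes from -1.05 to 0.30. Of 8 macrophage markers, Csf1r, Cd68 and Adgre1 rose and Vsig4 fell, with a summed fitted level of 33245 normalized counts in 4N livers and 25667 in WT livers. Of 6 endothelial markers 0 passed the authors' Wald test, and of 2 listed brown fat markers Elovl3 rose, with a mean of 11.1 normalized counts. The part of these cell types in the values of the respiratory chain and of its related genes was not tested.

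Complex I takes 7 subunits from the mitochondrial genome, all in the membrane arm that pumps protons, and 5 of them fell. The transcript of mt-Nd1, the subunit next to the quinone site, had a fitted level of 193222 normalized counts in 4N livers and 484428 in WT livers. Its log2 fold change was -1.33 per the authors' deposited table (SE 0.29, adjusted p = 8.6e-05, 95% interval -1.89 to -0.76). The antiporter-like subunit mt-Nd4 stood at 122039 normalized counts in 4N livers and 296989 in WT livers, a fold change of -1.28 per the authors' deposited table (SE 0.28, adjusted p = 6.7e-05). Both mRNAs were thus at well under the WT level, and their intervals lay wholly below 0. The other antiporter-like subunits mt-Nd5 and mt-Nd2 fell too, by 1.02 (SE 0.34) and 0.99 (SE 0.31) per the authors' deposited table. The light-strand gene mt-Nd6 fell by 1.32 (SE 0.34) per the authors' deposited table, with 41692 normalized counts in 4N livers and 104041 in WT livers. Whether the libraries kept strand is not stated, so reads of mt-Nd6 cannot be told apart from heavy-strand precursors that run across it. The remaining pair, mt-Nd3 and mt-Nd4l, is described with the nuclear copies.

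Cytochrome b, the only mitochondrial subunit of complex III, and the catalytic subunit of complex IV also fell. The fitted level of mt-Cytb was 308595 normalized counts in 4N livers and 584719 in WT livers, and its fold change was -0.92 per the authors' deposited table (SE 0.27, adjusted p = 0.0061). The heme-copper subunit mt-Co1, the most abundant of the 112 genes, had 751032 normalized counts in 4N livers and 1168487 in WT livers, with a fold change of -0.64 per the authors' deposited table (SE 0.23, adjusted p = 0.0414, 95% interval -1.09 to -0.18). Its fall was the smallest of the 7, and its interval overlapped those of the other 6. The remaining mitochondrial mRNAs of complexes IV and V did not pass. The electron-accepting subunit mt-Co2 had 7704 normalized counts in 4N livers and 9633 in WT livers, and mt-Co3 had 2692 normalized counts in 4N livers and 10556 in WT livers. In fold change, mt-Co2 was at -0.32 (SE 0.71) and mt-Co3 at -1.97 (SE 0.94) per the authors' deposited table. The proton channel subunit mt-Atp6 stood at -1.79 (SE 0.74, adjusted p = 0.0841) and the short mt-Atp8 at 0.84 (SE 0.90) per the authors' deposited table. These 4 SEs, from 0.71 to 0.94, were well above the 0.23 to 0.34 of the 7 genes that fell.

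**Figure D2:**
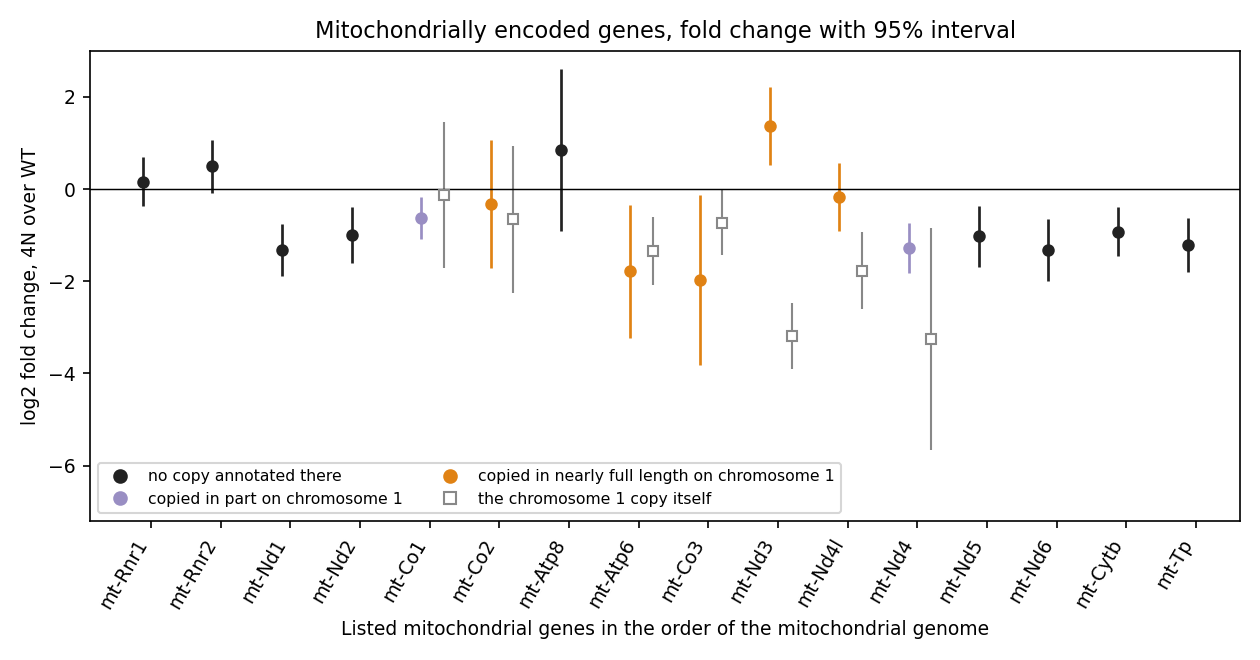
Log2 fold change of 4N over WT (vertical axis) for the 16 listed mitochondrial genes in genome order, with 95% intervals from the authors' standard errors. Colours mark genes with an annotated copy on chromosome 1, in nearly full length or in part, and open squares are those copies. The genes from mt-Co2 to mt-Nd4l have the widest intervals and the only positive values among the 13 protein genes, those of mt-Atp8 and mt-Nd3.

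Several mitochondrial genes with wide errors have a near-identical copy in the nuclear genome. Chromosome 1 carries a run of pseudogenes in the order of the mitochondrial genome, from part of mt-Co1 to part of mt-Nd4. In the GENCODE M21 transcripts (build GRCm38), the copies of mt-Co2, mt-Atp6, mt-Co3 and mt-Nd4l were identical to the mitochondrial gene over 681, 678, 783 and 294 bases. The copy of mt-Nd4 was identical over 876 of its 1378 bases. The copy of mt-Nd3, Gm28438, matched 344 of 345 bases and differed by T3C, the mitochondrial base first, counted from the first base of mt-Nd3. The first 90 bases of both are shown because this pair moved in opposite directions, with the differing base in capitals.
mt-Nd3: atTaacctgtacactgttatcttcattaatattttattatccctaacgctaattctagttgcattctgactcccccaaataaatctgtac
Gm28438: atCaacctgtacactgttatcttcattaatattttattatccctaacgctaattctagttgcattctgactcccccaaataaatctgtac

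Reads from such stretches cannot be assigned to either locus by sequence, so the values of both loci are uncertain, and how the authors counted them is not given in the sources used here. Per length, the 6 protein genes with no copy or with one of a minor part, mt-Nd1, mt-Nd2, mt-Nd5, mt-Nd6, mt-Cytb and mt-Co1, had fitted levels from 80332 to 486105 normalized counts per kb in 4N livers and from 200465 to 756302 in WT livers. The 5 genes copied in nearly full length had fitted levels from 1549 to 11263 per kb in 4N livers and from 890.5 to 14105 in WT livers. Both ranges are far apart in either group. In mt-Nd4, copied in part, the level was 88563 per kb in 4N livers and 215522 in WT livers, and in mt-Atp8, with no copy annotated there, 304 per kb in 4N livers and 169.6 in WT livers. In the authors' deposited table, mt-Nd3 passed the test as higher (1.37, SE 0.43, adjusted p = 0.0133), whereas its copy Gm28438 passed as lower (-3.19, SE 0.37, adjusted p = 3.4e-16). The fitted level of mt-Nd3 was 800.3 normalized counts in 4N livers and 309.9 in WT livers, and that of Gm28438 was 258 in 4N livers and 2361 in WT livers. Taken as 1 sum, the pair had 1058 fitted normalized counts in 4N livers and 2671 in WT livers, a ratio of 0.396. The part of read assignment in these opposite values was not tested. The other short complex I gene, mt-Nd4l, had 460.0 normalized counts in 4N livers and 516 in WT livers and did not pass, per the authors' deposited table (log2 fold change -0.17, SE 0.38). The copies of mt-Nd4l (Gm10222, -1.77, adjusted p = 4.8e-04) and mt-Atp6 (Gm10925, -1.34, adjusted p = 0.0035) also fell per the authors' deposited table. Summed with its copy, each of the 7 copied genes had a ratio of 4N to WT under 1, from 0.335 for mt-Atp6 to 0.735 for mt-Co2, next to 0.539 for the summed 6 genes with no copy or a minor one. No error can be given for these sums, since the table does not hold single libraries.

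**Figure D3:**
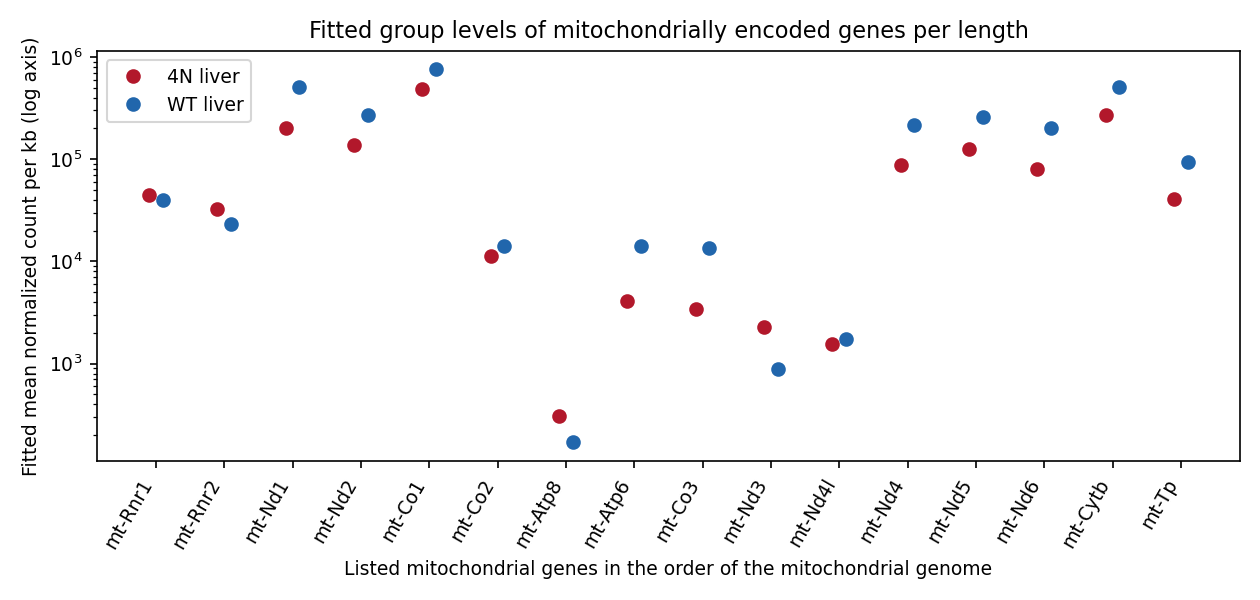
Fitted mean normalized count per kb of gene length (log axis) in 4N livers (red) and WT livers (blue) for the 16 listed mitochondrial genes in genome order; no error is shown because single libraries were not analysed. WT lies above 4N in mt-Nd1 (201904 in 4N and 506194 in WT), and 4N lies above WT in mt-Rnr2 (32616 in 4N and 23221 in WT).

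The rRNAs of the mitochondrial ribosome did not pass the test, and both of their values were above 0. The small subunit rRNA mt-Rnr1 had 42185 normalized counts in 4N livers and 37677 in WT livers, a fold change of 0.16 per the authors' deposited table (SE 0.27, 95% interval -0.37 to 0.70). The large subunit rRNA mt-Rnr2 had 51599 normalized counts in 4N livers and 36736 in WT livers, a fold change of 0.49 per the authors' deposited table (SE 0.29, 95% interval -0.08 to 1.06), and passed as higher (0.97, adjusted p = 0.0049) after recentring on secreted plasma proteins. Their intervals did not overlap with that of mt-Nd1, their neighbour in the genome, although the difference itself was not tested. The libraries were poly(A)-selected, so rRNA and tRNA levels here are those of molecules that passed that selection. Of 22 mitochondrial tRNA genes in the annotation, only mt-Tp, the light-strand proline tRNA, was listed. It fell, with 2723 normalized counts in 4N livers and 6315 in WT livers and a fold change of -1.21 per the authors' deposited table (SE 0.29, adjusted p = 0.00059). As for mt-Nd6, reads of mt-Tp cannot be told apart from heavy-strand precursors that run across it.

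Of the 39 nuclear subunits of complex I, 0 passed the authors' Wald test, with a median of -0.21 (0.27 after recentring on secreted plasma proteins) and 35 values below 0. At an unadjusted Wald p under 0.05, 5 were lower and 0 higher, and the share of all genes at that threshold was not computed. After that recentring, the accessory subunit Ndufa7 passed as higher (0.57, adjusted p = 0.021) and 0 as lower. The core subunits hold the flavin and iron-sulfur clusters of the hydrophilic arm. The NADH-binding subunit Ndufv1 stood at -0.17 (SE 0.25) and the core subunit Ndufs1 at -0.28 (SE 0.20) per the authors' deposited table. The fitted level of Ndufs1 was 7739 normalized counts in 4N livers and 9398 in WT livers. Among the 30 accessory subunits the lowest was Ndufa12, at -0.60 per the authors' deposited table (SE 0.23, adjusted p = 0.0613), and the highest Ndufa3, at 0.14 (SE 0.29). The 2 copies counted with the subunits, Ndufs6b and Ndufb4c, had means of 75.9 and 47.3 normalized counts and did not pass. Ndufa12-ps, a symbol marked as a pseudogene and left out by the rule, fell by 1.10 per the authors' deposited table (adjusted p = 8.2e-05), and how reads were split between both is unknown. With genes of a mean under 50 left out, Ndufa12 passed too (adjusted p = 0.047).

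The complex I assembly factors, chaperones that build the enzyme without staying in it, all had values below 0. Of the 8, 2 fell (25%), against 7.41% of all genes listed. Values below 0 were not particular to them, being found in 35 of the 39 nuclear complex I subunits and 81 of the 96 nuclear genes. Ndufaf4, which acts early together with Ndufaf3, had 989 normalized counts in 4N livers and 2143 in WT livers, a fold change of -1.12 per the authors' deposited table (SE 0.28, adjusted p = 0.0011). Ndufaf2, a chaperone of a late intermediate, had 571 normalized counts in 4N livers and 1073 in WT livers, a fold change of -0.91 per the authors' deposited table (SE 0.29, adjusted p = 0.0159). The other 6 ranged from -0.59 for Ndufaf6 to -0.10 for Ndufaf7 per the authors' deposited table. After recentring on secreted plasma proteins neither passed (adjusted p = 0.077 for Ndufaf4 and 0.28 for Ndufaf2). The list median was -0.52, and -0.04 after that recentring.

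Complex II joins the chain to the citric acid cycle, and 1 of its 4 subunits fell, against 7.41% of all genes listed. The iron-sulfur subunit Sdhb had 6698 normalized counts in 4N livers and 9504 in WT livers, a fold change of -0.50 per the authors' deposited table (SE 0.18, adjusted p = 0.0413). The flavoprotein Sdha stood at 0.12 (SE 0.20) and the membrane anchors Sdhc and Sdhd at -0.12 (SE 0.20) and -0.06 (SE 0.24) per the authors' deposited table. After recentring on secreted plasma proteins, Sdhb no longer passed (-0.03, adjusted p = 0.94) and Sdha passed as higher (0.60, adjusted p = 0.016).

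Of the 9 nuclear subunits of complex III, 2 small ones fell (22.2%), and so did cytochrome c, the mobile carrier between complexes III and IV. The share that fell was 7.41% over all genes listed and 10.3% over those whose mean reached 1000. Uqcrq, a small subunit beside cytochrome b, had 7382 normalized counts in 4N livers and 19000 in WT livers, a fold change of -1.36 per the authors' deposited table (SE 0.28, adjusted p = 3.0e-05, 95% interval -1.92 to -0.81). Uqcr10 had 4454 normalized counts in 4N livers and 7186 in WT livers, a fold change of -0.69 per the authors' deposited table (SE 0.22, adjusted p = 0.014). The subunits that carry electrons, the Rieske protein Uqcrfs1 and cytochrome c1 (Cyc1), did not pass at -0.45 (SE 0.19) and -0.42 (SE 0.26) per the authors' deposited table. The large core proteins Uqcrc1 and Uqcrc2 were at -0.16 (SE 0.19) and -0.15 (SE 0.18) per the authors' deposited table. Within complex III, the genes past the test were thus 2 small subunits and mt-Cytb. The 9 nuclear subunits had a median of -0.42 (0.059 after recentring on secreted plasma proteins), with 8 values below 0. Somatic cytochrome c (Cycs) had 3439 normalized counts in 4N livers and 5561 in WT livers, a fold change of -0.69 per the authors' deposited table (SE 0.25, adjusted p = 0.0356). Cycs has 3 copies that match over 317 to 946 bases at 99.4% to 99.9% identity, the most abundant of which had a mean of 326 normalized counts, so its value is uncertain to that extent. After recentring on secreted plasma proteins, Uqcrq remained lower (-0.88, adjusted p = 0.0091), whereas Uqcr10 and Cycs did not pass (adjusted p = 0.52 and 0.57).

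Complex IV had the most nuclear genes past the test in number, 4 lower and 2 higher of 18. By share, 22.2% were lower, the same as among the nuclear subunits of complex III. Of all genes listed, 7.41% fell and 7.94% rose, and of those whose mean reached 1000, 10.3% fell and 11.9% rose. The lower and the higher genes of complex IV differed by kind. The 4 that fell were subunits or partners found in most tissues. Cox7b, a small subunit of the enzyme, had 7267 normalized counts in 4N livers and 20048 in WT livers, a fold change of -1.46 per the authors' deposited table (SE 0.22, adjusted p = 5.8e-10, 95% interval -1.89 to -1.04). Among the 112 genes it had the smallest adjusted p, and it alone passed a test against a 1.5-fold change. Cox6c had 6055 normalized counts in 4N livers and 9536 in WT livers, a fold change of -0.66 per the authors' deposited table (SE 0.21, adjusted p = 0.0146). Cox7a2, the isoform of subunit VIIa found in liver, had 5749 normalized counts in 4N livers and 8697 in WT livers, a fold change of -0.60 per the authors' deposited table (SE 0.20, adjusted p = 0.0228). Its relative Cox7a2l, which links complexes III and IV into supercomplexes, had 5221 normalized counts in 4N livers and 7595 in WT livers, a fold change of -0.54 per the authors' deposited table (SE 0.19, adjusted p = 0.0383). A pseudogene on chromosome 12, Gm6969, is identical to Cox7a2l over 201 bases and fell too (-0.73, mean 1657 normalized counts, adjusted p = 0.0241, per the authors' deposited table), so reads of both cannot be told apart there. Cox6c, Cox7a2 and Cox7a2l did not pass after recentring on secreted plasma proteins (adjusted p = 0.59, 0.72 and 0.86).

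**Figure D4:**
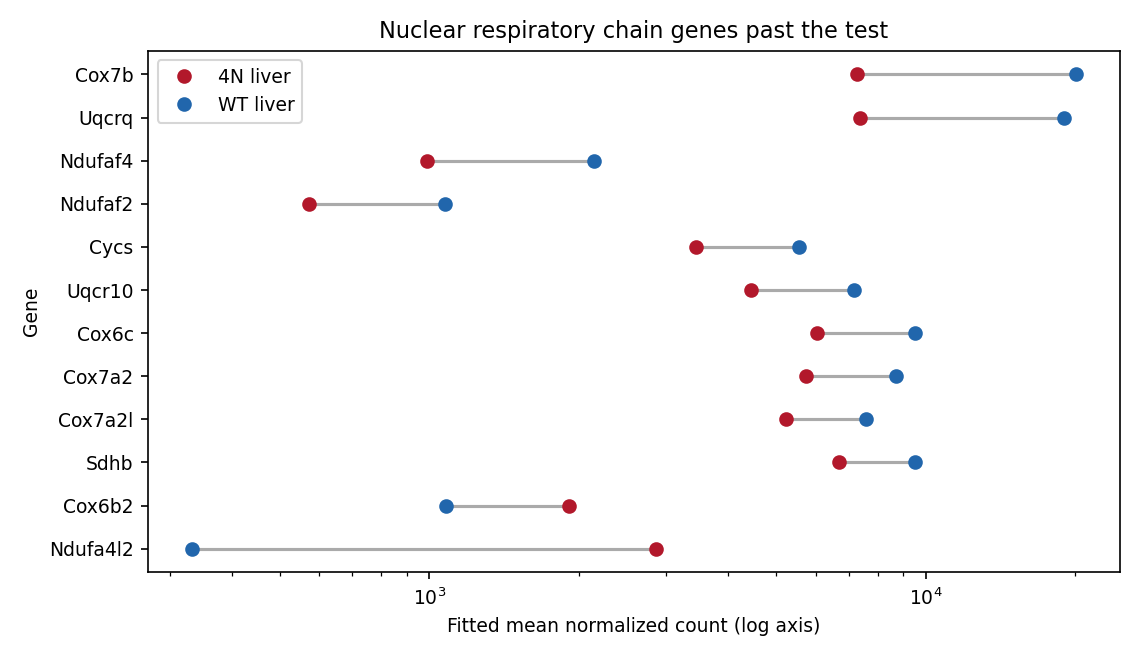
Fitted mean normalized count (log axis) in 4N livers (red) and WT livers (blue) of the 12 nuclear genes that passed the test, ordered by fold change from Cox7b at the top; no error is shown because single libraries were not analysed. WT lies to the right of 4N for 10 genes, and 4N to the right of WT for Cox6b2 and Ndufa4l2.

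The 2 nuclear genes that rose are relatives of complex IV subunits with a restricted expression. Ndufa4l2, a hypoxia-induced relative of Ndufa4 that lowers respiration in cells that express it, had 2859 normalized counts in 4N livers and 333 in WT livers, a fold change of 3.10 per the authors' deposited table (SE 0.85, adjusted p = 0.0032, 95% interval 1.43 to 4.77). The interval is wide for a gene of this level, since the median SE was 0.24 over all genes whose mean reached 1000. Ndufa4, first assigned to complex I and later to complex IV and counted with complex IV here, had 7343 normalized counts in 4N livers and 9527 in WT livers and did not pass (-0.38, SE 0.21, per the authors' deposited table). Per length, Ndufa4l2 reached 2611 and Ndufa4 5317 normalized counts per kb in 4N livers, and 304 and 6898 per kb in WT livers. Cox6b2, known as the testis isoform of subunit VIb, had 1910 normalized counts in 4N livers and 1082 in WT livers, a fold change of 0.82 per the authors' deposited table (SE 0.28, adjusted p = 0.0253). Its common counterpart Cox6b1 had 7246 normalized counts in 4N livers and 8555 in WT livers and did not pass (-0.24, SE 0.24, per the authors' deposited table). Per length, Cox6b2 was at 1724 and Cox6b1 at 10234 normalized counts per kb in 4N livers, and at 977 and 12083 in WT livers.

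The isoforms of heart and skeletal muscle were near the bottom of the table. Cox7a1 had 101 normalized counts in 4N livers and 21.4 in WT livers (2.25, SE 1.07, adjusted p = 0.1565, per the authors' deposited table), and Cox6a2 5.73 normalized counts in 4N livers and 15.9 in WT livers (-1.48, SE 2.17). The lung-typical Cox4i2 had 44.6 normalized counts in 4N livers and 21.4 in WT livers (1.06, SE 1.28, per the authors' deposited table). None of the 3 passed, although Cox7a1 did after recentring on secreted plasma proteins (2.73, adjusted p = 0.041). Of 11 muscle markers 8 were listed and 1, Tnnc1, rose, with a summed fitted level of 1252 normalized counts in 4N livers and 352 in WT livers, of which Tnnc1 alone gave 1064 in 4N livers and 243 in WT livers. The part of such cells in these values was not tested. The counterparts found in liver did not pass either, with Cox4i1 at -0.51 (SE 0.22, adjusted p = 0.0947), Cox6a1 at -0.19 (SE 0.31) and Cox8a at 0.17 (SE 0.34) per the authors' deposited table. Cox7b2, Cox8b and Cox8c were not among the genes listed.

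Of the 17 nuclear subunits of ATP synthase, 0 passed the authors' Wald test, with a median of -0.13 (0.35 after recentring on secreted plasma proteins). At an unadjusted Wald p under 0.05, 2 were lower and 0 higher, again without a computed share of all genes. The catalytic head is built from the alpha and beta subunits, and these were the most abundant nuclear genes of the chain. The beta subunit Atp5b had 103547 normalized counts in 4N livers and 96192 in WT livers, a fold change of 0.11 per the authors' deposited table (SE 0.20, 95% interval -0.28 to 0.49). The alpha subunit Atp5a1 had 66458 normalized counts in 4N livers and 72388 in WT livers, a fold change of -0.12 per the authors' deposited table (SE 0.18, 95% interval -0.48 to 0.23). Both intervals left out a 2-fold change in either direction. The membrane rotor is a ring of subunit c, whose identical mature protein comes from 3 genes, and their values differed in sign. Atp5g1 had 6793 normalized counts in 4N livers and 4596 in WT livers, a fold change of 0.56 per the authors' deposited table (SE 0.32, adjusted p = 0.2645). Its near-identical pseudogene Gm10039 on chromosome 11 (99.8% over 411 bases) fell, with 1525 normalized counts in 4N livers and 4981 in WT livers (-1.71, SE 0.30, adjusted p = 5.7e-07, per the authors' deposited table). Summed, both had 8318 in 4N livers and 9577 in WT livers, a ratio of 0.869, so the direction of Atp5g1 turns when its copy is counted with it. Of the 11 nuclear genes with a listed copy that is no member, Atp5g1 was the one whose ratio passed to the other side of 1. Atp5g2 was at -0.13 (SE 0.23) and Atp5g3 at -0.43 (SE 0.19, adjusted p = 0.1034) per the authors' deposited table. Atp5l, subunit g at the base of the stator, was the lowest of the 17 at -0.59 (SE 0.24, adjusted p = 0.0868, per the authors' deposited table), and it has 8 near-identical copies in the annotation, 4 of them listed. After recentring on secreted plasma proteins, Atp5b (0.59, adjusted p = 0.015), Atp5e (0.59, adjusted p = 0.029) and Atp5g1 (1.04, adjusted p = 0.0068, without its copy) passed as higher.

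Promoters of nuclear respiratory chain genes often carry sites for NRF1, a factor that drives many of them. In 300-base promoters of RefSeq (build GRCm38.p6, 250 bases before to 50 after the start), 76 of the 96 nuclear genes had an entry. The NRF1 core GCATGCGC, searched on both strands, was in 13 of these 76 (17.1%), against 3.05% of all 27025 genes with a promoter entry. The ETS-type core CGGAAGT was in 12 of 76 (15.8%), against 7.20% of all. Of the 8 matched genes that fell, 3 held the NRF1 core and 0 the ETS core, next to 10 and 12 of the 67 that did not pass, and these small counts were not tested. Genes with the NRF1 core had a median fold change of -0.28 and those without it -0.26. The promoters of the 3 genes that fell and hold the core are shown, 5′ to 3′ on the gene's strand, with the core in capitals. In that of Ndufaf4 the first stretch is the overlapping palindrome and the second the core on the other strand.
Cycs, chr6:50566520-50566819, minus strand: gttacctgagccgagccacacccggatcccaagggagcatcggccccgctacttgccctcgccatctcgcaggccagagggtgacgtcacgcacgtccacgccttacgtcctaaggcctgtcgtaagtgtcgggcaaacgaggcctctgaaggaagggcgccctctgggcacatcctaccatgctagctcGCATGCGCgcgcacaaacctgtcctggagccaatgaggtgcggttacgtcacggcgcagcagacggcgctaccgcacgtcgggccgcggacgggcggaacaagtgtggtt
Ndufaf4, chr4:24897833-24898132, plus strand: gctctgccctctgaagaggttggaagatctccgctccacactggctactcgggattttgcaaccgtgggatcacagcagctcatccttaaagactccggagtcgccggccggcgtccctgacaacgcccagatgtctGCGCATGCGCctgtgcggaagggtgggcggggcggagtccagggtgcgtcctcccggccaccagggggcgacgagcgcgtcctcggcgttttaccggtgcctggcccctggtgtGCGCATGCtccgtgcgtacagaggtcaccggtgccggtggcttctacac
Sdhb, chr4:140961021-140961320, plus strand: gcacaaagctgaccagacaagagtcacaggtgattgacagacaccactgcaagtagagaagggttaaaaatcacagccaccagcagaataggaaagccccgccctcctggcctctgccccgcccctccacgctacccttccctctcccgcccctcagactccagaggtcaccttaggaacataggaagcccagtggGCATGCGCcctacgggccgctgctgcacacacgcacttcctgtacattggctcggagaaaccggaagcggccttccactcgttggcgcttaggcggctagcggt
A match describes letters in this window and is not a shown site of binding.

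Genes that build, supply or regulate the chain were examined in 13 lists of 230 measured genes in all, of which 28 fell and 3 rose, with a median of -0.27. In the 174 whose mean reached 1000, 22 fell (12.6%), against 10.3% of all genes at that level. After recentring on secreted plasma proteins the balance turned round, with 3 of the 230 lower, namely Coq10b, Cox18 and Sucla2, and 26 higher, and a median of 0.21. None of the other falls named from these lists passed then. Without recentring, the assembly list of each complex had genes that fell and none that rose. In the authors' deposited table, the complex IV list (3 of 22 lower) was led by Coa6, which helps to deliver copper (-1.05, SE 0.24, adjusted p = 0.00019), and Cox18, which inserts the mt-Co2 protein into the membrane (-1.20, SE 0.28, adjusted p = 0.00033). The complex I list outside the Nduf names (2 of 11 lower) held the iron-sulfur carrier Nubpl (-0.96, SE 0.27) and Tmem126a (-0.82, SE 0.27), per the authors' deposited table. Sdhaf3 of complex II (1 of 4 lower, -1.13, SE 0.32), Ttc19 and Lyrm7 of complex III (2 of 6 lower, -0.77 and -0.87) and Atpaf1 of complex V (1 of 6 lower, -0.85) fell per the authors' deposited table. Coq10b, a coenzyme Q chaperone, had 949 normalized counts in 4N livers and 2804 in WT livers, a fold change of -1.56 per the authors' deposited table (SE 0.24, adjusted p = 2.2e-09), and was the 1 of 13 coenzyme Q genes that passed.

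The calls among genes that express the mitochondrial genome differed by list. Of all genes listed 7.41% fell, and 10.3% of those whose mean reached 1000. Of 15 genes of its replication and transcription, the initiation factor Tfb2m fell (-0.64, SE 0.23, adjusted p = 0.0345) and the replicative helicase Twnk rose (0.79, SE 0.22, adjusted p = 0.0038) per the authors' deposited table. Of 19 genes of mitochondrial RNA processing and stability, 4 fell (21.1%), with a list median of -0.41. Among the 4 were Fastkd1 (-0.93, SE 0.24) and the exoribonuclease Pnpt1 (-0.73, SE 0.25). After recentring on secreted plasma proteins, 0 of the 19 were lower and 2 higher. Of 78 mitochondrial ribosomal protein genes, 8 fell (10.3%) and 0 rose, with a median of -0.36. The falls were led by Mrps9 (-0.72, SE 0.21, adjusted p = 0.0055) and Mrps22 (-0.94, SE 0.29) per the authors' deposited table. Among 12 nuclear regulators of mitochondrial biogenesis, the coactivator Ppargc1a fell, with 1775 normalized counts in 4N livers and 3110 in WT livers (-0.81, SE 0.28, adjusted p = 0.0328, per the authors' deposited table), and the list median was -0.01. With values recentred on secreted plasma proteins, 0 of these 12 were lower and 5 higher, and the list median was 0.47.

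The citric acid cycle list, which supplies NADH and succinate, had 3 lower of 17. Both beta subunit genes of succinyl-CoA ligase fell, Sucla2 at 4381 normalized counts in 4N livers and 9142 in WT livers (-1.06, SE 0.22, adjusted p = 2.1e-05, per the authors' deposited table) and Suclg2 at -0.76 (SE 0.22) per the authors' deposited table. Of 9 measured carriers and uncoupling proteins, the ADP/ATP carrier Slc25a4 fell (-0.89, SE 0.25, adjusted p = 0.0043) and Ucp2, an inner membrane carrier of the uncoupling protein family, rose (1.24, SE 0.25, adjusted p = 2.6e-05) per the authors' deposited table. The fitted level of Ucp2 was 56709 normalized counts in 4N livers and 24058 in WT livers. Of 18 genes of protein import and inner membrane shape, 0 passed the authors' Wald test, with values from -0.49 to 0.06.

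**Figure D5:**
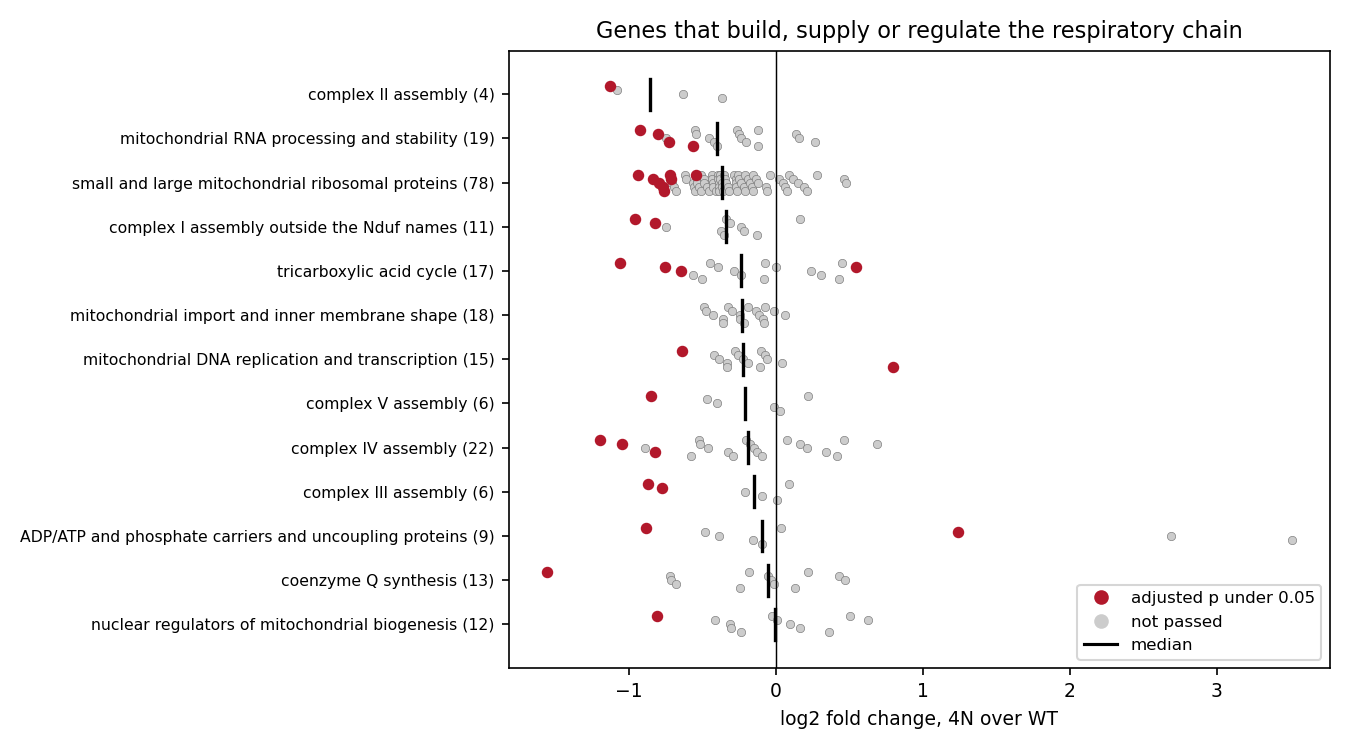
Log2 fold change of 4N over WT (horizontal axis) of single genes in 13 lists around the respiratory chain, ordered by median, with the number of measured genes in brackets. Red points passed an adjusted p of 0.05, grey points did not, and black bars are medians. The 78 mitochondrial ribosomal protein genes have a median of -0.36 with 8 lower and 0 higher.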

How the data were processed

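Libraries of 3 4N and 2 WT livers of E18.5 embryos were compared by the authors in 1 deposited table, built on GRCm39 per the submitters' processing notes; the aligner, counter and test software are not stated in the labels, and the column names are those of DESeq2. Per the file headers, it holds for each gene a signal (normalized counts averaged over the libraries) and, on a log2 scale, the fold change and its SE. The Wald score is the deposited log2 fold change over its SE, and the deposited p-values were checked to be Benjamini-Hochberg adjusted over 23022 genes.

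The design had allowed for counts; as no values per library were analysed, the authors' test stood in. Fitted group means assume that the mean over all libraries weights each library equally. Gene lengths came from GENCODE M21 (union of exons, 109 of 112 genes matched, GRCm38). Near-identical copies were transcripts of another gene with at least 98% identity over 100 bases by blastn 2.17.0. Genes and lists were chosen with earlier results of these data known. Named genes were all mitochondrial protein and rRNA genes, the called nuclear genes of each complex with the smallest adjusted p (up to 5 per direction, or the 2 most abundant), isoform pairs, and up to 2 called genes per direction and list; others were chosen after their values were seen. Atp5if1 was not listed under that symbol, and 2 genes that the rules name are not reported here. Alternatives were a test against 1.5-fold, a minimum mean of 50, a t reference with 3 degrees of freedom, a threshold of 0.01, Bonferroni, and recentring on genes whose mean reached 10000 or on 27 secreted plasma proteins. Work was done in Python 3.11.15 with pandas 2.3.3, scipy 1.17.1, biopython 1.88 and matplotlib 3.10.9.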

Additional observations from a re-analysis of the deposited data

How the results depend on the processing

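No single gene of the chain that passed the test in one direction passed it in the other under an alternative. Recentring on genes whose mean reached 10000 moved values by -0.05, kept all 21 calls and added 3, 2 of them nuclear complex I subunits, and a minimum mean of 50 kept all 21 and added 1 complex I subunit. Recentring on secreted plasma proteins moved all values up by 0.48 and kept 9 of the 21 calls. It turned the balance of calls round, to 6 lower and 10 higher genes of the chain, with 3 mitochondrial protein genes, 0 assembly factors, 0 complex II, 1 complex III and 1 complex IV gene lower, and 3 lower and 26 higher list genes. The medians were then -0.51 (mitochondrial protein genes), 0.27 (complex I), -0.040 (its assembly factors), 0.39 (complex II), 0.059 (complex III), 0.18 (complex IV), 0.35 (complex V), 0.23 (all nuclear) and 0.22 (all 112). An adjusted p under 0.01 left 8 lower and 1 higher (4 mitochondrial protein genes, 1 assembly factor, 0 complex II, 1 complex III, 1 complex IV) and 11 lower list genes. Bonferroni left 2 lower and 0 higher, 1 each in complexes III and IV, with 2 lower and 1 higher list genes. The test against a 1.5-fold change left 1 lower and 0 higher, in complex IV, and 1 list gene. The t reference with 3 degrees of freedom left 0 of 112 and 0 of all genes, against 10 and 2513 at an unadjusted p under 0.05. The log2 ratio of the summed mitochondrial genes was -0.88, and -0.92 for protein genes alone. With 3 and 2 libraries and no single values, leaving out replicates was not run. No paired analysis was possible because the groups share no replicate numbers.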
